A study of Mus musculus with 4 samples.

Results

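Serpins and the genes of blood clotting and clot breakdown were followed in RNA from mouse kidney glomeruli. Members were all genes whose array annotation gives a single symbol beginning with Serpin, apart from the collagen chaperone Serpinh1, together with 18 named genes of coagulation and fibrinolysis. This gave 57 members, 39 serpins and 18 others, of 18193 genes on the array. Each gene was read from its brightest probe set by mean over the 4 arrays. Family members without a probe set of a single symbol were not analysed here.

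Serpins are protease inhibitors that trap their target protease through an exposed loop. Clotting starts when tissue factor (F3) meets factor VII, and ends in thrombin, which turns fibrinogen into fibrin. It is held back by antithrombin, by tissue factor pathway inhibitor and by the protein C system, in which thrombomodulin on endothelium turns thrombin into an activator of protein C. Fibrin is removed by plasmin, which the tissue-type and urokinase-type activators (Plat and Plau) make from plasminogen. The glomerular endothelium is known as a source of Plat and thrombomodulin, and renal tubules as a source of urokinase.

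All mice were male and had lost 1 kidney. They were wild type (WT) or lacked guanylyl cyclase A, the natriuretic peptide receptor encoded by Npr1, throughout the body (GC-A KO, here KO). WT control and KO control mice received 2% ethanol under the skin and a normal diet for 3 weeks. WT ALDO and KO ALDO mice received aldosterone and a diet with 6% salt for 3 weeks. ALDO stands for both together, and aldosterone and salt cannot be told apart. There was 1 Affymetrix array per group. Age, strain, the number of animals behind an array and the isolation of the glomeruli are not stated in the labels. Values are intensities as deposited, and 4 values in a row stand for WT control and KO control, then WT ALDO and KO ALDO. A difference is a log2 difference of intensity + 16 between 2 arrays. Without replicates there was no test and no error for any difference, and the number of arrays limits the precision. A level cannot be set against that of another gene, because probe sets differ in their response.

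Each array had the same trimmed mean of 500.003. Among 18 probe sets of hybridisation control RNA, the median difference from WT control was -0.04 for KO control. It was -0.27 for WT ALDO and -0.17 for KO ALDO. The 3' to 5' ratio of beta-actin was 1.86, 1.67, 1.87 and 1.61, and that of Gapdh 0.785, 0.741, 0.778 and 0.744. Both ratios were thus lower on the KO arrays, while the median intensity was higher there (89.5, 97.7, 91.9 and 103). The part of these array differences in the KO differences below was not tested. Npr1 itself was dim, with 92.6, 108, 60.5 and 23.4, and the place of its probe set relative to the deleted part is not stated, so it did not check the labels. All 6 podocyte markers with a named probe set were in the brighter 50% of genes, but so were all 7 of the proximal tubule, whose summed intensity was 105008, 88115, 97428 and 78030.2 over the 4 arrays. The RNA therefore held tubular as well as glomerular transcripts, and fewer cells of a type and less RNA per cell cannot be told apart.

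Of the 57 members, 22 (10 serpins and 12 others) belonged to the 9097 genes in the brighter 50% by mean, with a low end at an intensity of 246.7, and are described one by one. These 22 varied more between the arrays than most genes. Their highest array exceeded their lowest by a median of 1.86-fold, against 1.25-fold for all 9097 genes, and 9 of the 22 (40.9%) spanned 2-fold or more, against 5.01% of the 9097. In the brightest 25% of genes the shares were 3 of 8 members (37.5%) and 3.83%, with no filter on brightness 22 of 57 (38.6%) and 20.1%, and with the next-brightest probe set 3 of 8 (37.5%) and 11.8%. KO ALDO was the highest array for 10 of the 22 (background 33.5% of genes), and WT control for 6 (background 26.7%).

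**Figure D1:**
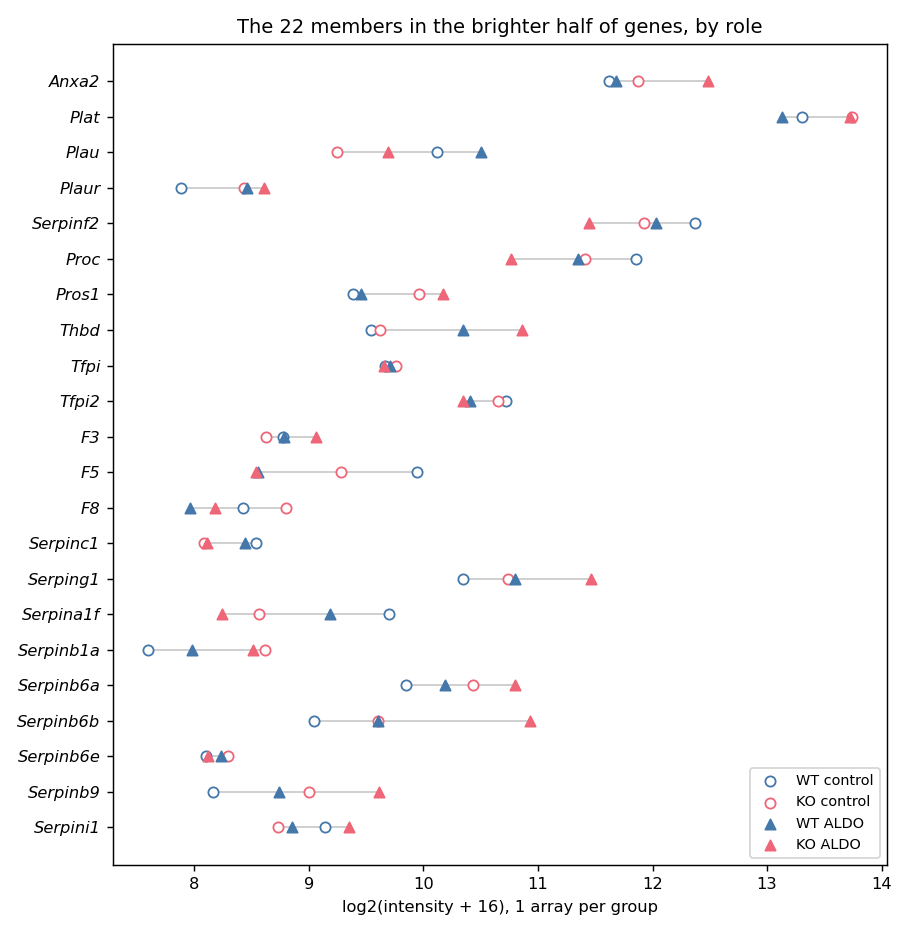
The log2(intensity + 16) of the 22 members in the brighter 50% of genes is plotted for each of the 4 arrays, with genes ordered by role from plasminogen activators at the top to other serpins at the bottom; open symbols are control, filled symbols ALDO, blue WT and red KO, and the grey line spans the 4 values. Serpinb6b has the widest span, with KO ALDO 3.70-fold over WT control, and Tfpi the narrowest at 1.08-fold; positions along the axis are not comparable between genes.

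The 2 plasminogen activators differed in opposite directions between the genotypes. Plat (tissue-type activator, Entrez gene 18791) measured 10087 in WT control and 13670.5 in KO control, against 8927 in WT ALDO and 13552 in KO ALDO. Both KO arrays were above both WT arrays, with differences of 0.44 under control treatment and 0.60 under ALDO. The ALDO and control values were close within a genotype (-0.18 in WT and -0.01 in KO). A second, weaker probe set of Plat gave 0.21 and 0.01 between the genotypes. On it, with 283, 330, 250 and 252, KO ALDO lay below WT control, so both KO arrays were not above both WT arrays. Plau (urokinase, Entrez gene 18792) had 1096, 591, 1434 and 808. Both KO arrays were below both WT arrays, by -0.87 and -0.81, while ALDO was above control in either genotype, by 0.38 and 0.44. Its other probe set, with 184, 119, 273 and 158, had the same 4 directions.

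The receptors that gather plasminogen activation on the cell surface were higher in KO than in WT under each treatment by their brightest probe sets. Plaur, the urokinase receptor, had 221, 329.7, 337 and 374. WT control stood lowest and the other 3 arrays lay close together, so its KO difference was 0.55 under control treatment and 0.14 under ALDO. Anxa2 (annexin A2, which binds plasminogen and Plat) had 3134, 3735, 3271 and 5725. Its KO ALDO value was the outlying one, 1.75-fold over WT ALDO (0.80) and 1.53-fold over KO control (0.61), whereas KO control was 0.25 above WT control. The other, dimmer probe sets of Anxa2 had KO control below WT control, by -0.21 and -0.12. By the mean of all probe sets Anxa2 no longer had both KO arrays above both WT arrays. S100a10, the partner of annexin A2 in that complex and not itself a member, had 2665, 4596, 3404 and 4932. It was higher in both KO arrays, by 0.78 and 0.53.

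Serpinf2 encodes alpha-2-antiplasmin, the main inhibitor of plasmin. Its intensity went down from 5295 in WT control through 4157 in WT ALDO and 3865 in KO control to 2775 in KO ALDO. KO was lower under both treatments (-0.45 and -0.58) and ALDO was lower in both genotypes (-0.35 and -0.48). Serpini1, known as neuroserpin and an inhibitor of Plat, had 548, 409, 446 and 636. It was the member whose 2 genotype differences had opposite signs by the widest margin, -0.41 under control treatment and 0.50 under ALDO, but its next-brightest probe set gave -0.19 and -0.23.

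Thbd (thrombomodulin, Entrez gene 21824) had the largest positive ALDO effect in WT of all 22 members. Its intensity was 731 in WT control and 770.1 in KO control, against 1281 in WT ALDO and 1846 in KO ALDO. Both ALDO arrays were above both control arrays, by 1.74-fold in WT (0.80) and 2.37-fold in KO (1.24), while the 2 control arrays were close (0.07). Procr, the endothelial receptor that presents protein C to thrombomodulin, was outside the brighter 50% with 65.0, 109.9, 179 and 206. Its ALDO values were again above its control values, by 1.27 in WT and 0.82 in KO, on a scale that understates the change of dim genes.

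The circulating partners of this system went other ways. Proc (protein C, mainly a liver product that the array also detects in kidney RNA) had 3695, 2712, 2599 and 1726. The highest value was in WT control and the lowest in KO ALDO, with KO below WT by -0.44 and -0.59, and ALDO below control by -0.51 in WT and -0.65 in KO. Pros1, encoding protein S, the cofactor of protein C and a ligand of TAM receptors, had 652, 980.4, 685 and 1138. Both KO arrays were above both WT arrays (0.58 and 0.72), and the ALDO effects were smaller (0.07 in WT and 0.21 in KO). Thus the 4 genes of the protein C system did not share a direction.

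Markers of cell types were read beside these genes. The 7 glomerular endothelial markers other than Plat were all higher on the KO arrays under both treatments (medians 0.45 and 0.46), with summed intensities of 13617, 18038, 15004 and 21365. In WT ALDO 6 of them were above WT control (median 0.23), and in KO ALDO 6 were above KO control (0.39). This was not particular to endothelium. Of 6 mesangial and smooth muscle markers, 6 were higher in KO under control treatment and 5 under ALDO (medians 0.35 and 0.41). All 6 were higher under ALDO in both genotypes (0.47 in WT and 0.73 in KO). Of 4 parietal epithelial markers, 3 and 4 were higher in KO (0.44 and 0.56), and of 6 podocyte markers 2 and 6 (-0.08 and 0.14). Among the 7 proximal tubule markers, none was higher on a KO array than on its WT counterpart. Their medians were -0.32 under control treatment and -0.34 under ALDO. Of 3 thick limb and distal tubule markers, 2 were higher and 1 lower in KO under either treatment (medians 0.01 and 0.11). The part of endothelial, mesangial or parietal RNA in the values of Plat, Thbd, Procr and Pros1 was not tested. Nor was that of tubular RNA in the values of Plau, Proc and Serpinf2.

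F3, Tfpi and Tfpi2 spanned at most 1.35-fold over the 4 arrays. F3 (tissue factor) had 423, 379, 425 and 519, where KO ALDO stood 0.44 above KO control and the remaining arrays were close. Tfpi, the inhibitor of the tissue factor and factor VII complex, had 797, 852, 819 and 789 and the narrowest span, 1.08-fold. However, its 4 probe sets did not give the same picture: 2 of them were higher under ALDO by 0.60 and 0.55 in WT and by 0.60 and 0.66 in KO, while the brightest gave 0.04 and -0.11. Tfpi2, a related inhibitor held in the matrix, had 1674, 1590.2, 1339.7 and 1288. It was lower under ALDO in both genotypes (-0.32 and -0.30) and differed little between genotypes (-0.07 and -0.06).

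The cofactors F5 and F8 were lower on both ALDO arrays. F5 (factor V, the cofactor of factor Xa, Entrez gene 14067) had 967 in WT control and 605 in KO control, against 361 in WT ALDO and 355 in KO ALDO. This was the lowest ALDO difference in WT among the 22 members, a ratio of 0.38 (-1.38), and the only one past 2-fold. ALDO was also lower in KO (-0.74), and KO control lay -0.66 from WT control. WT control was thus the highest array and KO control lay between it and the ALDO arrays. Its second probe set had 629, 456, 536 and 276, with a much smaller WT effect of -0.22 and a similar KO effect of -0.70. F8 (factor VIII, which endothelium secretes) had 328, 430.0, 233 and 274, with ALDO effects of -0.47 in WT and -0.62 in KO. KO was above WT under either treatment (0.37 and 0.22). Hepatocyte markers were mostly lower on the ALDO arrays too: 4 of 5 in WT (median -0.77) and 5 of 5 in KO (-0.30), among them Alb with 588, 536, 339 and 329.8. Their summed intensity was 30120, 32850.3, 25500.2 and 26617.8, with none at 0. Most of it came from Ttr (28206.5, 31151.5, 24164.8 and 25355.6), so the sum does not stand for every marker. Apoa2 changed little (684, 621, 705 and 607), and Ahsg was dim (39.2, 30.4, 5.57 and 24.5). The part of hepatocyte-type RNA in the values of F5 and Proc was not tested.

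Serpinc1 encodes antithrombin, the main inhibitor of thrombin and factor Xa. It had 355, 255, 331 and 259.6, so that both KO arrays were below both WT arrays (-0.45 and -0.33) and ALDO made little difference (-0.10 and 0.02). The other thrombin inhibitor, heparin cofactor II (Serpind1), was dim with 71.4, 55.3, 53.0 and 26.3. Serpina10, the protein Z-dependent inhibitor of factor Xa (Entrez gene 217847), was the single member outside the brighter 50% that exceeded this limit of 246.7 on any array. Its values were 93.1 in WT control and 248 in KO control, against 73.2 in WT ALDO and 480.3 in KO ALDO. KO was above WT by 1.27 under control treatment and 2.48 under ALDO. The ALDO treatment went with a higher value in KO (0.91) but not in WT (-0.29). Both WT values are dim, so the size of these differences is uncertain. Serpina10 passed the limit on its KO arrays alone, so the rule that named it also favoured a direction of KO above WT.

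The regulatory sequences of the serpins that stood together are shown next because 4 of the 7 members with both KO arrays above both WT arrays lie in a single gene cluster (3 of 6, without Serpinb6b, when arrays were centred on their median or quantile normalized). In the RefSeq gene table of GRCm38.p6, Serpinb1a, Serpinb6b, Serpinb9, Serpinb6e and Serpinb6a lie in an uninterrupted run of 16 protein-coding genes on chromosome 13, all of them clade B serpins, a clade whose members mainly act inside cells. RefSeq promoter windows of GRCm38.p6 were available for 46 of the 57 members. The 250 bases before the start of Serpinb6b (chr13:32965011-32965260, plus strand), Serpinb9 (chr13:33004291-33004540, plus strand) and the upstream start of Serpinb6a (chr13:34002795-34003044, minus strand) follow 5′ to 3′, with motif matches in capitals.
Serpinb6b: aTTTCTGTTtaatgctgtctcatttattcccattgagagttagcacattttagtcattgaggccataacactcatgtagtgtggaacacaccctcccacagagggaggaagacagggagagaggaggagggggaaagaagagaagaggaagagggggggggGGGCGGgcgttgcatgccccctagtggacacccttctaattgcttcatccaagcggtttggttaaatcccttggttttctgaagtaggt
Serpinb9: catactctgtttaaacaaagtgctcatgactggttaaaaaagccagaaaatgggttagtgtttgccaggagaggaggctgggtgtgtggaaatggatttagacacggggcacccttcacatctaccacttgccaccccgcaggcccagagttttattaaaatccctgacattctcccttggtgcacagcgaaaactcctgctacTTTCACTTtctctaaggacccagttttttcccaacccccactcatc
Serpinb6a: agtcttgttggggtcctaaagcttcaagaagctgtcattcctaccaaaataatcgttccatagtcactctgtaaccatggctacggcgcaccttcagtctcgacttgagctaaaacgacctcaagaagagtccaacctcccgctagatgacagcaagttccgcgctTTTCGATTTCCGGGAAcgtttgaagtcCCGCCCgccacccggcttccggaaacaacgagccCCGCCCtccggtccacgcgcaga

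The motifs searched on both strands were the core bound by interferon regulatory factors (AANNGAAA), a STAT site (TTCNNNGAA), the GC box (GGGCGG) and the TATA box (TATAAA). Serpinb6b held 1 interferon factor core, far from the start, and 1 GC box. Serpinb9 held 1 interferon factor core and no other motif. Serpinb6a held 1 such core, 1 STAT site that overlaps the end of it and 2 GC boxes, and a second, downstream start of Serpinb6a (chr13:33936084-33936333) held none of the 4 motifs. Of 32851 windows of this length, 21.3% held the interferon factor core, 7.02% the STAT site, 32.7% the GC box and 12.4% the TATA box. These matches describe letters in a window and show no binding.

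In this cluster, Serpinb6b (Entrez gene 20708) had the widest range of the 22 members. Its intensity was 511 in WT control and 762 in KO control, against 760.0 in WT ALDO and 1935 in KO ALDO, so that KO control and WT ALDO were alike and KO ALDO stood far above both. That KO control exceeds WT ALDO rests on this small margin. It was 2.51-fold higher in KO ALDO than in WT ALDO (1.33) and 2.51-fold higher than in KO control (1.33), against 0.56 for KO and 0.56 for ALDO alone. The excess of the ALDO effect in KO over that in WT was 0.77, short of 2-fold. Serpinb6a, an inhibitor of cathepsin G, had 903, 1369, 1147 and 1765, with KO above WT by 0.59 and 0.61 and ALDO above control by 0.34 and 0.36.

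Serpinb9, an inhibitor of the cytotoxic protease granzyme B, had 271 in WT control and 496 in KO control, against 411 in WT ALDO and 765 in KO ALDO. Every step was upward: KO lay 0.84 and 0.87 above WT, and ALDO 0.57 and 0.61 above control, and its second probe set had the same 4 directions. Serpinb1a, an inhibitor of neutrophil elastase and cathepsin G, had 178, 376, 237 and 349. It was 2.02-fold higher in KO control than in WT control (1.02), just past 2-fold (0.91 with arrays centred on their median), and 0.53 higher under ALDO, while a second probe set gave 0.84 and 1.12. Serpinb6e, with 258, 297, 284 and 262, did not follow its neighbours and spanned only 1.14-fold. Genes of this cluster within the same subfamily (Serpinb1, Serpinb6 or Serpinb9) are close copies of each other, and how far their probe sets share signal was not tested.

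**Figure D2:**
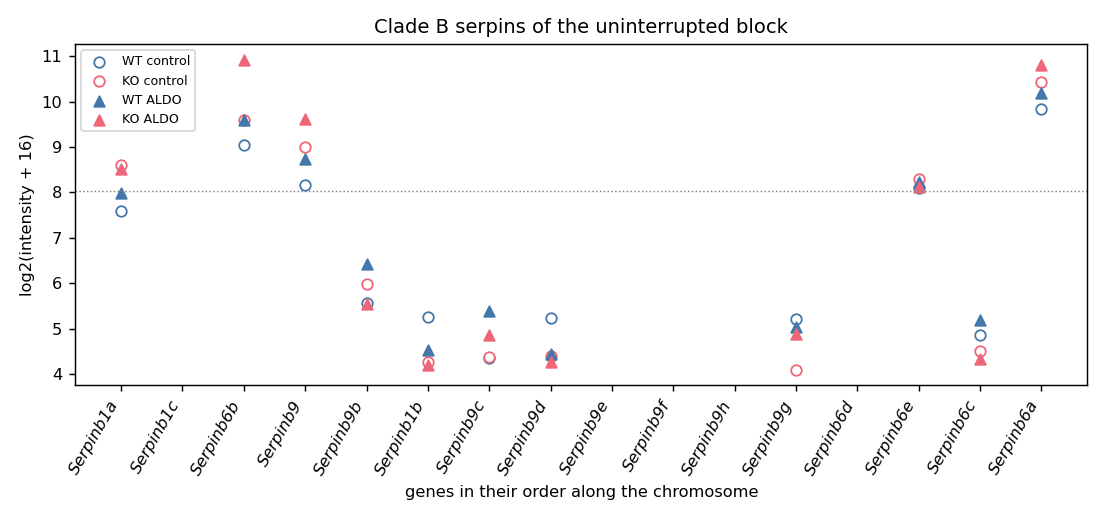
The log2(intensity + 16) on the 4 arrays is plotted for the 16 clade B serpins of the cluster on chromosome 13 in their order along it, with empty positions for genes without a probe set of a single symbol and a dotted line at the low end of the brighter 50% (8.04). Serpinb1a, Serpinb6b, Serpinb9 and Serpinb6a have both KO arrays (red) above the WT arrays (blue), in Serpinb6b by a small margin for KO control. Serpinb6e has all 4 values close together, and the other members lie below the line. Among those, Serpinb1b, Serpinb6c, Serpinb9d and Serpinb9g have both KO arrays below both WT arrays. Levels are not comparable between genes.

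Macrophage markers were higher on the same arrays. All 8 were higher on the KO arrays under both treatments, with medians of 1.32 and 1.30, and their summed intensity was 4988, 9739, 4980.0 and 10958, with none at 0. The lymphocyte and NK cell markers, among them the granzyme genes, were dim, with 0 of 6 in the brighter 50% and summed intensities of 123, 209, 178 and 146. The neutrophil sum was 774, 1008, 95.3 and 1051 on the same arrays, with 1 of 5 markers in the brighter 50%. Most of it came from S100a8 (383, 462, 34.5 and 533) and S100a9 (320, 468, 4.50 and 453), while Mpo, Elane and Camp were dim. Under either treatment 3 of the 5 were higher and 2 lower in KO. In WT ALDO 2 (Mpo and Camp) were above WT control and 3 below, so the sum does not stand for every marker. The part of macrophage or neutrophil RNA in the values of the clade B serpins was not tested.

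Serping1, the C1 inhibitor that controls complement, the contact system and plasma kallikrein, had 1283 in WT control and 1690.1 in KO control, against 1769 in WT ALDO and 2810.4 in KO ALDO. WT control was lowest, KO ALDO highest, and all 4 differences were above 0: 0.39 and 0.66 for KO, 0.46 and 0.73 for ALDO. Serpina1f, a relative of alpha-1-antitrypsin (Entrez gene 68348), had all 4 below 0, as had F5, Proc, Serpinf2 and Tfpi2. Its values were 815, 363, 565 and 286, with KO below WT by -1.13 under control treatment, the only lower value past 2-fold there, and by -0.95 under ALDO. Its ALDO effects were -0.52 in WT and -0.33 in KO. Some other genes of the alpha-1-antitrypsin group share a probe set: that of Serpina1a and Serpina1d, left out by the rule, had 432, 389, 251 and 330.3. How far the probe set of Serpina1f shares signal with them was not tested.

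Counted together, 1 of the 22 members (Serpinb1a) was at least 2-fold higher in KO control than in WT control, where the background was 0.967% of the 9097 genes, and 1 (Serpina1f) at least 2-fold lower (background 0.176%). Serpinb1a passed the brightness filter through its KO arrays, with both WT values below 246.7, so its call is not independent of that filter. The median of the 22 was 0.14, with 13 above 0, beside a median of -0.00199 and 49.7% above 0 for all genes. In KO ALDO against WT ALDO 1 member (Serpinb6b) was past 2-fold upward (background 1.26%) and 0 downward (0.352%). The median was 0.25 with 13 above 0, beside 0.01 and 51.3% for all genes. The genotype difference had the same sign under both treatments, which share no array, for 18 of the 22 members (background 68.6%). Both KO arrays lay above both WT arrays for 7 members (background 25%): Anxa2, Plat, Pros1, Serpinb1a, Serpinb6a, Serpinb6b and Serpinb9. Both lay below for 4 (background 23.7%): Plau, Serpina1f, Serpinc1 and Serpinf2. The shares of members above (7 of 22) and below (4 of 22) are near the background and do not set them apart. With arrays centred on their median they were 6 and 6 (Serpinb6b left the first group, Proc and Tfpi joined the second), against backgrounds of 13.3% and 44.2%.

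WT ALDO against WT control gave 0 members past 2-fold upward (background 0.33%) and 1 downward, F5 (0.352%). The median was 0.05 with 13 above 0, beside 0.01 and 51.9% for all genes. KO ALDO against KO control gave 2 upward, Serpinb6b and Thbd (background 0.572%), and 0 downward (0.132%). The median was 0.10 with 12 above 0, beside 0.01 and 52.3% for all genes. The ALDO effect had the same sign in both genotypes, again without a shared array, for 17 of 22 members (background 62.2%). Both ALDO arrays were above both control arrays for F3, Plaur, Serping1 and Thbd (4 of 22, background 17.1%), and below for F5, F8, Proc and Tfpi2 (4 of 22, background 16.1%). With arrays centred on their median F3 left the first of these lists and Serpinb6b joined it, and Proc left the second. No member's ALDO effect differed by 2-fold or more between the genotypes (background 0.594% upward and 0.33% downward). The nearest were Serpini1 (0.90) and Serpinb6b (0.77) upward and Serpinb1a (-0.49) and Plaur (-0.40) downward.

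**Figure D3:**
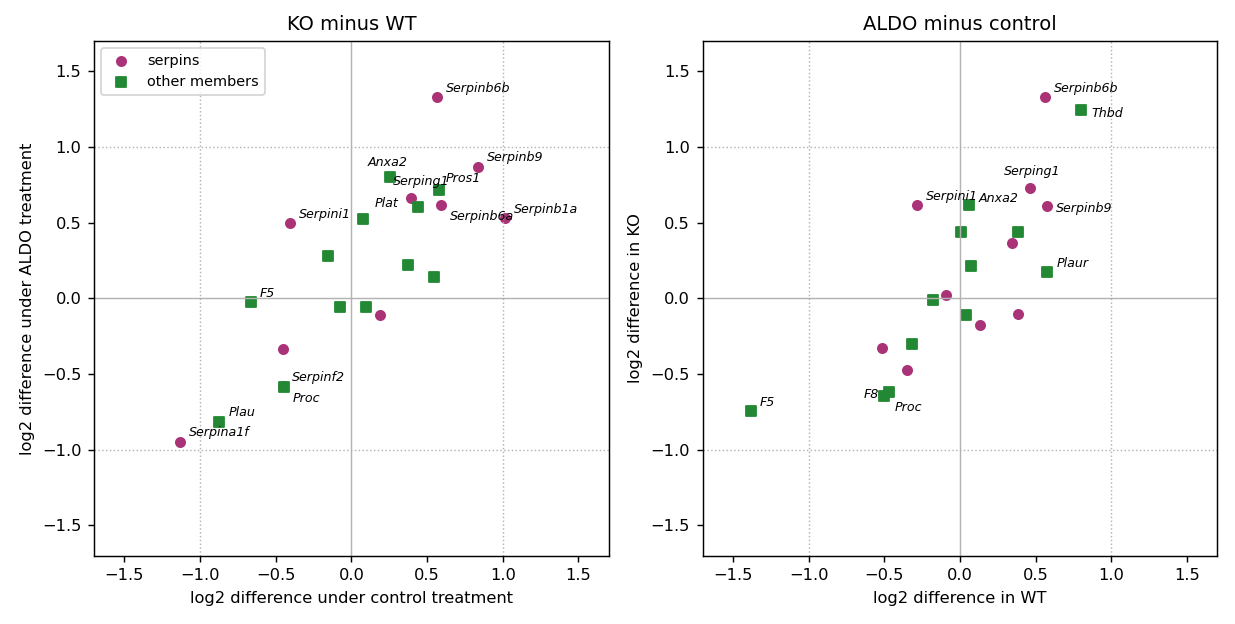
Log2 differences of the 22 members are plotted as KO minus WT under control treatment against the same under ALDO (left) and as ALDO minus control in WT against KO (right); circles are serpins, squares other members, and dotted lines mark 2-fold. On the left 18 of 22 points lie in the quadrants of equal sign, from Serpina1f at the lower left to Serpinb6b and Serpinb9 at the upper right, and on the right 17 of 22 do, with F5 lowest and Serpinb6b and Thbd highest.

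There were 8 members in the brighter 50% with more than 1 probe set. Plat, Plau, F5 and Serpinb9 gave all 4 differences the same sign in every probe set. The sizes were unequal for F5 and for Plat, whose second probe set gave ALDO effects of -0.17 in WT and -0.37 in KO. Serpinb1a kept its KO sign but gave ALDO effects of 0.38 and -0.50 in WT. Anxa2, whose other probe sets were dim (199, 182, 196 and 243 in the brighter of them), kept its sign for KO under ALDO and for ALDO in KO. Serpini1 and Tfpi changed sign between probe sets.

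**Figure D4:**
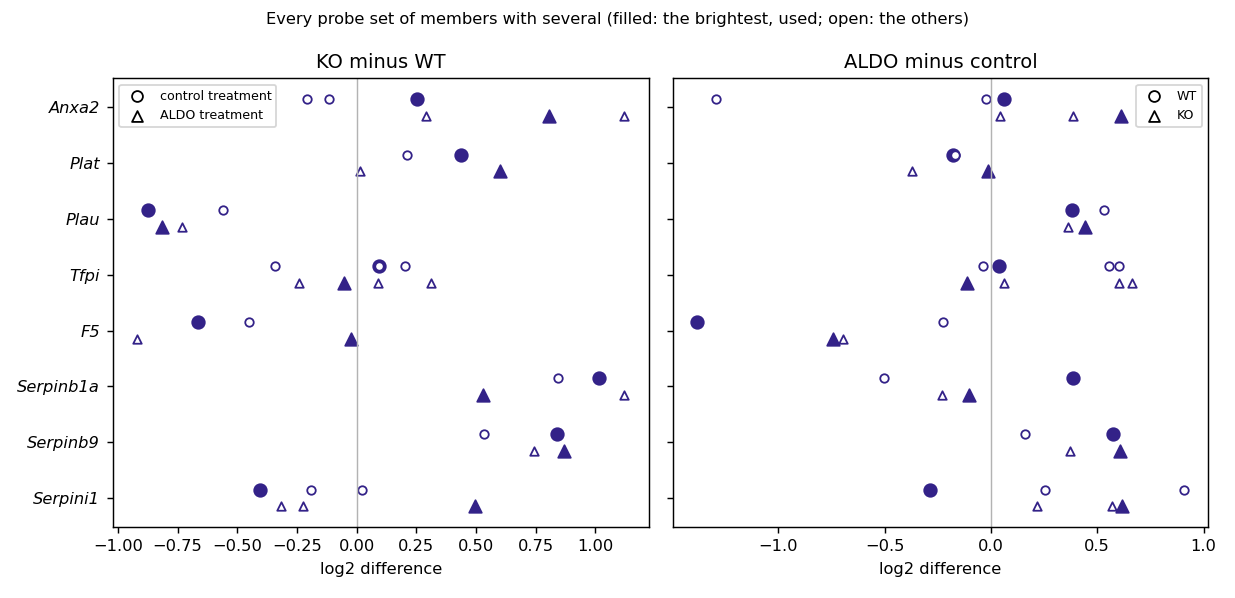
Log2 differences from every probe set of the 8 members in the brighter 50% that have several are plotted for KO minus WT (left; circles control treatment, triangles ALDO) and ALDO minus control (right; circles WT, triangles KO), with the brightest probe set filled and the others open. Plau lies left of 0 on the left panel and right of 0 on the right panel in both probe sets, whereas the probe sets of Serpini1 and Tfpi fall on both sides.

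The 35 members outside the brighter 50%, 29 of them serpins, had intensities from 0.362 to 480.3. Of these, 28 were below 100 and 22 below 50 on every array, among them the acute-phase serpin Serpina3n (5.91, 9.67, 7.70 and 11.1) and plasminogen itself (Plg, 11.1, 39.2, 11.7 and 48.3), both named after their values were seen. With these dim genes kept, 6 of 57 members were past 2-fold upward and 3 downward between the control arrays, where the background over all 18193 genes was 4.44% and 2.46%. The 5 added upward were Serpina10, F13a1, Serpina4-ps1, Plg and Serpinb5, and the 2 added downward Serpinb7 (-1.26) and Serpinb9g (-1.12), named here after their values were seen. The other probe sets of Serpina4-ps1 gave 0.14 and -0.73 for this difference, and those of Serpinb5 gave -0.37, 0.15 and 0.05. Of these F13a1, the transglutaminase that crosslinks fibrin and a product of platelets and macrophages, had 56.0, 177, 46.8 and 102, with KO above WT by 1.42 and 0.91. Of the 5 platelet markers, 4 were higher and 1 lower in KO under either treatment (medians 0.18 and 0.25). Pf4 and Ppbp, with the largest KO differences, had 212, 506, 215 and 457 and 111, 250.3, 95.3 and 135. Itga2b differed between the genotypes by 0.18 under control treatment and -0.15 under ALDO, Gp1bb by 0.10 and 0.25, and Gp9 by -0.29 and 0.05. The sum of the 5 platelet markers was 812, 1300.5, 652 and 927. The part of platelet or macrophage RNA in F13a1 was not tested.

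Among 30 other genes of the pathway, listed for comparison, 26 had a named probe set and 16 were in the brighter 50%. Of these 16, 1 was at least 2-fold higher in KO control than in WT control (background 0.967% of the 9097 genes) and 2 in KO ALDO than in WT ALDO (1.26%). Lower by 2-fold were 0 in either (background 0.176% and 0.352%). The medians were 0.16 and 0.18, with 11 above 0 in each, where 49.7% and 51.3% of all genes were above 0. The fibrinogen chains Fgg (1.54 and 2.79) and Fga (0.65 and 1.89) led under ALDO, S100a10 (0.78) was second under control treatment, and the vitamin K reductase Vkorc1 was lowest (-0.32 and -0.37), followed by Kng1 (-0.15) and Mcfd2 (-0.18). ALDO gave 0 of 16 past 2-fold in WT (background 0.33% upward and 0.352% downward), where the thrombin receptor F2r (0.49) and S100a10 (0.35) were highest. In KO it gave 2 upward (background 0.572%), Fga (1.37) and Fgg (1.34). These also led the difference of ALDO effects (1.24 and 1.25, background past 2-fold upward 0.594%), where Plgrkt (-0.34) and S100a10 (-0.25) were lowest. F13b, the carrier subunit of factor XIII, and Vkorc1l1 were lowest in both genotypes (-0.43 and -0.52, -0.36 and -0.37). F2r, with 7676, 12115, 10791 and 17189, had all 4 differences above 0, by 0.66 and 0.67 for KO.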

How the data were processed

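Total RNA from glomeruli was labelled with the GeneChip 3' IVT Express Kit and hybridised to 1 Affymetrix array for each of 4 groups, taken from the sample titles. The deposited values are probe set intensities on a linear scale, made with Affymetrix Expression Console per the submitters' processing notes, without a stated version or algorithm. The mean without the highest and lowest 2% is 500.003 on each array, so the values had been scaled before deposit, which hides a change of the whole transcriptome.

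Intensities were transformed as log2(intensity + 16), which understates changes of dim genes. Of 45101 probe sets, 34945 that are no Affymetrix controls have a single symbol in the array's annotation. The probe set with the highest mean log2 value stood for its gene. Entrez identifiers of all 57 members were found in RefSeq's table for GRCm38.p6, through which 0 symbols changed. Counts and medians used the 9097 genes in the brighter 50%, a call being 2-fold or more. No p-value was computed, since an additive fit over 4 arrays would take the difference of effects as its error. Members, lists and rules were chosen with earlier results of these data known. Named genes were the members in the brighter 50%, dim members above that limit on some array, a core set of clotting genes, and up to 2 highest and 2 lowest of the other pathway genes. Alternatives were pseudocounts of 1 and 64, median centring, quantile normalization, no filter, the brightest 25%, the mean of all probe sets and the next-brightest probe set. The steps were tested on simulated data. Python 3.11.15, pandas 2.3.3 and numpy 2.4.6 were used.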

Additional observations from a re-analysis of the deposited data

Results flagged for a closer look

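Serpini1 stood out because its differences ran in opposite directions, each by at least 0.25. The ALDO effect was -0.29 in WT and 0.62 in KO, and the genotype difference was -0.41 under control treatment and 0.50 under ALDO. With 1 array per group the difference was not tested, and the next-brightest probe set gave 0.25 and 0.22 for ALDO.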

How the results depend on the processing

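No p-value, so no threshold other than 2-fold, was at stake, and each group had 1 array, which limits every value. No paired analysis was possible because each group has a single array. Medians of the members moved by less than 1.5-fold under every alternative run, but with the next-brightest probe set (only members that have one) those for KO changed sign, to -0.15 under control treatment and -0.11 under ALDO, and that for ALDO in WT changed sign with it, with the mean of all probe sets and with the brightest 25% (-0.03, -0.03 and -0.06). None of the differences past 2-fold of single members in the brighter 50% changed sign. Those of some dim members did with some of their other probe sets, as for Serpina4-ps1 and Serpinb5. Median centring moved the median of all genes by -0.11 for KO against WT under control treatment and -0.13 under ALDO. Small counts moved as follows. Percentages in brackets are the shares of all genes under that setting. Members higher in KO control numbered 0 with a pseudocount of 64, quantile normalization or the next-brightest probe set. They numbered 0 with median centring (0.682%) or the brightest 25% (0.572%), and 6 with no filter (4.44%). Those lower numbered 0 with the brightest 25% (0.154%) or the next-brightest probe set and 3 with no filter (2.46%). Members higher in KO ALDO than WT ALDO numbered 0 with the brightest 25% (0.769%) and 4 with no filter (4.72%). With the mean of all probe sets they numbered 2, and 1 member was lower with median centring (0.572%) or quantile normalization. Under ALDO in WT, 3 were higher with no filter (3.4%). Lower were 0 with the brightest 25% (0.176%), the mean of all probe sets or the next-brightest probe set. Under ALDO in KO, 4 were higher with no filter (3.83%), 1 with the brightest 25% (0.44%) and 0 with the next-brightest probe set. For the difference of effects, 3 were higher (5.87%) and 3 lower (5.14%) with no filter. With the mean of all probe sets 1 was higher. With no filter (57 members, with the share of all 18193 genes) both KO arrays were above in 18 (25.2%) and below in 9 (18.3%), both ALDO arrays above in 9 (17.6%) and below in 9 (15.1%), and the sign was shared for 40 (genotype, 62%) and 35 (ALDO, 57.2%). With the brightest 25% (8 members of 4549 genes) these were 3 (19.6%), 1 (30.9%), 2 (15.2%), 2 (18.5%), 8 (71.2%) and 8 (64.3%). The shares of all genes past 2-fold with no filter ran from 2.3% to 5.87% over the 5 comparisons and both directions. For the pseudocounts, quantile normalization, the mean of all probe sets and the next-brightest probe set, these shares were not computed. Both filters change how many members are counted, and the cause of the other changes was not tested. Of single-member differences, the mean of all probe sets moved 1 of 130 by over 1.5-fold and the next-brightest probe set 9 of 40, for F5, Plat, Serpinb1a and Serpini1.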
